A study of Drosophila melanogaster with 9 samples.

Results

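The Ras-MAPK cascade carries signals from receptor tyrosine kinases at the cell surface to transcription factors in the nucleus. An activated receptor recruits adaptors and an exchange factor that load the small GTPase Ras85D with GTP, and Ras85D then activates the kinases Raf, Dsor1 (the fly MEK) and rolled (rl, the fly ERK) in turn. The 14-3-3 proteins bind phosphorylated serine motifs in many clients, Raf among them. In flies, rl phosphorylates the ETS-domain factors pointed (pnt), an activator, and anterior open (aop, also called yan), a repressor, and sprouty (sty) is a feedback inhibitor whose transcription the pathway can induce. The transcripts of 10 genes of this cascade are described here. They are the 14-3-3 genes 14-3-3zeta and 14-3-3epsilon, the core genes Ras85D, Raf, Dsor1, rl and the scaffold ksr, and the output genes sty, pnt and aop. They were chosen by name, through the FlyBase identifier of each symbol. All 10 were found among the 17559 genes counted, and all 10 were among the 7406 genes that were tested, those with a mean CPM (read counts as a share of each library's reads, on a common scale) above 1.

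The libraries were made from S2R+ cells, which grow attached, resemble blood cells and were derived from late *Drosophila* embryos (Oregon R). KD1 and KD2 cells received the first and the second double-stranded RNA (dsRNA) against Hrb98DE, which encodes an RNA-binding protein of the hnRNP type, and lacZ cells received a dsRNA against a bacterial gene. All groups took up dsRNA during 6 h of serum starvation, were treated repeatedly and were collected on day 5, so the controls share the starvation and the exposure to dsRNA. Each group held 3 replicates, numbered 1, 3 and 4 in KD1, 1, 2 and 4 in KD2 and 1, 2 and 3 in lacZ. The methods of the study describe 4 biological replicates for each dsRNA, and an n of 3 in the test of mRNA. All libraries come from 1 cell line.

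The libraries held 13040608 to 15931035 reads assigned to genes. Replicates of a group differed by more than sampling noise, with a chi-square per degree of freedom of 3.97 to 12.8, the highest between lacZ replicates 1 and 2. Hrb98DE, the target, was at 977.5 ± 97.2 normalised reads in KD1 and 1077 ± 73.0 in KD2, against 6931 ± 181 in lacZ (SD, n = 3 each), which matched the labels. Of 9 blood cell markers examined, 8 were tested, and 6 rose in each knockdown, where 9.71% of all tested genes rose in KD1 and 11.3% in KD2 (DESeq2). He, another of them, was lower, at a log2 fold change of -0.67 in KD1 (adjusted p = 0.0972, 0.0490 in edgeR) and -0.48 in KD2 (adjusted p = 0.247). Their summed level was 6766 to 7020 normalised reads in lacZ, 7746 to 8211 in KD1 and 8684 to 8720 in KD2, while NimC1, a marker of phagocytic blood cells, was near 0 in every library. The neuronal markers nSyb and Syt1 and the muscle marker Mhc were also near 0. elav, the other neuronal marker, was at 367 to 394 normalised reads in lacZ, 312 to 334 in KD1 and 364 to 391 in KD2, and its log2 fold change in KD1 was -0.22 (adjusted p = 0.0751 in DESeq2, 0.0269 in edgeR). The muscle marker Mef2 was at 1415 to 1489 in lacZ and rose in both knockdowns, by a log2 fold change of 0.17 (adjusted p = 0.0290) and 0.23 (adjusted p = 0.00193), while bt did not pass. The part of these markers in the results below was not tested.

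**Figure D1:**
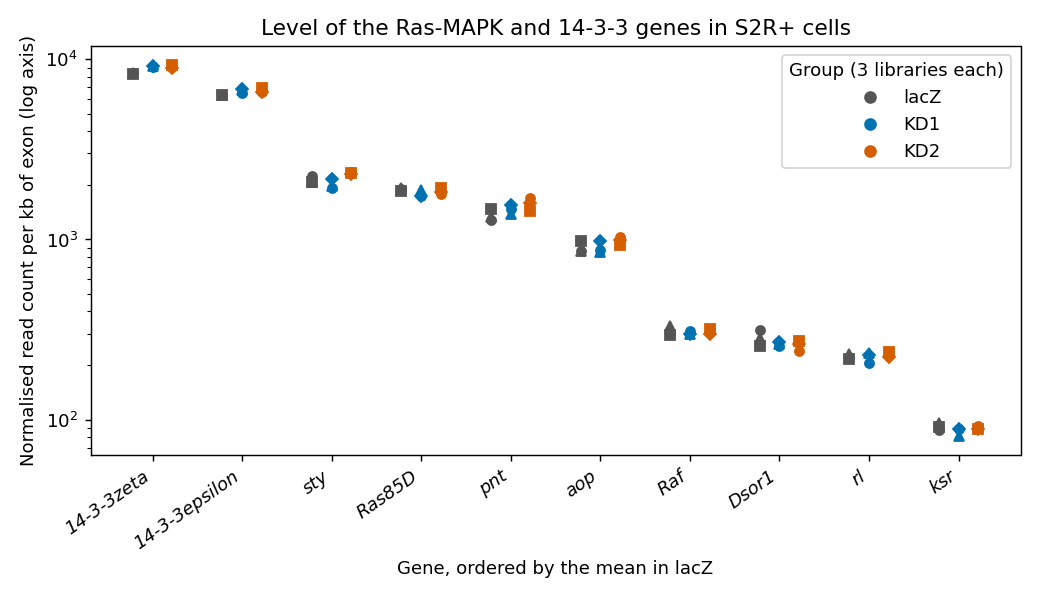
Normalised read count per kb of exon (log axis) of the 10 genes in the 9 libraries, with 1 point per library, coloured by group. The 14-3-3 genes lie at the top and ksr lies at the bottom in every group, and the points of the groups lie close together for each gene.

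The level of each gene was first compared within lacZ cells, as normalised reads per kb of exon. 14-3-3zeta (8344 ± 65.6) and 14-3-3epsilon (6322 ± 19.1) were the most abundant members, at percentiles 98.4 and 98.0 of the 7244 tested genes with an exon length (SD, n = 3). They were followed by sty (2139 ± 94.2), Ras85D (1901 ± 35.1), pnt (1367 ± 103) and aop (903 ± 70.7), at percentiles of 93.2 to 80.9. The kinases and their scaffold were far less abundant. Raf (308 ± 18.8) stood at percentile 50, Dsor1 (285 ± 29.9) at 47.3, rl (224 ± 7.78) at 39.8 and ksr (91.8 ± 4.05) at 19.5. Raf and Dsor1 overlapped between libraries, and no other neighbours in this order did. The order of the means was the same in KD1 and in KD2. These lengths are the union of all annotated exons, so a gene with long exons that these cells do not use is placed too low.

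Next, each dsRNA was compared with lacZ. 14-3-3zeta rose slightly in both knockdowns, pnt rose slightly in KD2, and no member fell in either. The test was the Wald test of DESeq2 over all tested genes, in which rose or fell means an adjusted p under 0.05. In KD1, 1 of the 10 members rose and 9 did not pass the test, where 21.2% of all genes tested passed it in either direction and 9.71% rose. In KD2, 2 members rose and 8 did not pass, where 23.6% of all genes passed and 11.3% rose. The share of members that passed was therefore close to or below that of all genes. No member changed by more than 1.3-fold with an adjusted p under 0.05, with DESeq2 or with the edgeR quasi-likelihood test, against 7.37% of all genes in KD1 and 8.13% in KD2. At an unadjusted p under 0.05 there were 2 members in KD1 and 4 in KD2, against 2347 and 2460 of all 7406 genes tested. By the values alone, 2 members lay above lacZ in KD1 without overlap between the libraries (39.5% of all genes did not overlap, 19.2% by being higher), and 3 in KD2 (38.1% and 18.6%). The median log2 fold change of the members was -0.01 in KD1 and 0.07 in KD2, and that of all genes was 0.00 in both. In a pool of cells, a change in RNA per cell and a change in the share of cells that carry the RNA cannot be told apart.

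**Figure D2:**
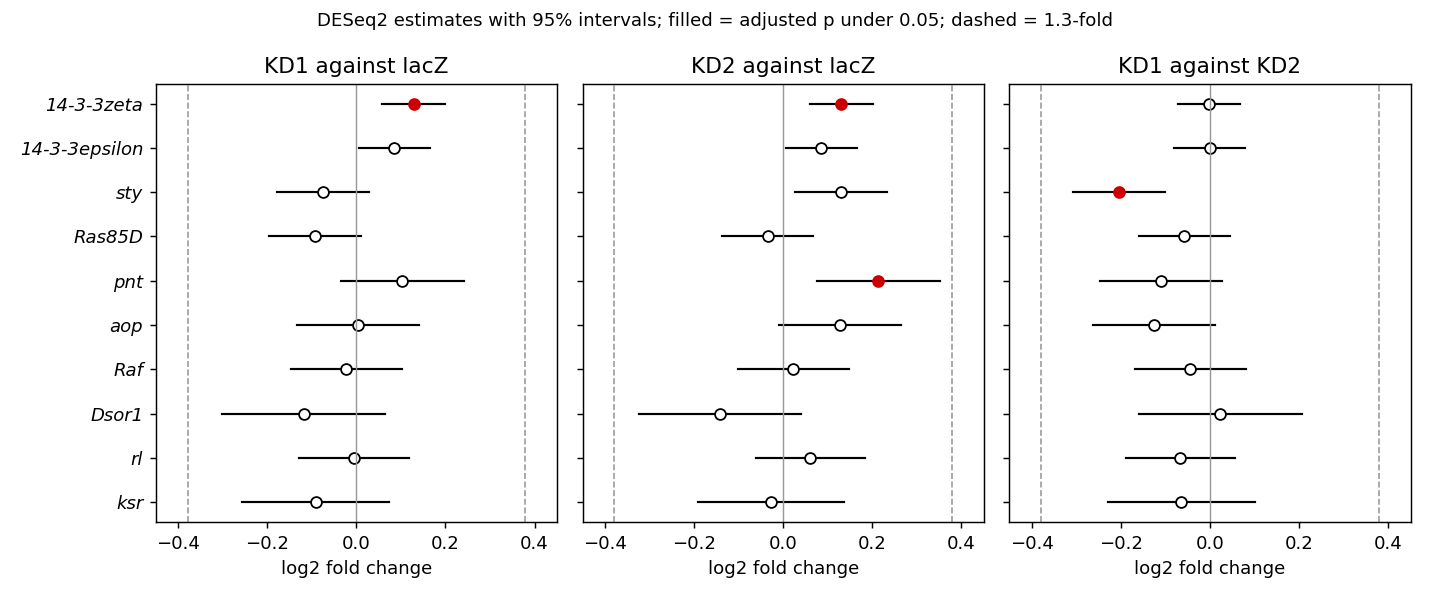
log2 fold change of each member with its 95% interval (DESeq2, 3 libraries per group) in the comparisons of KD1 with lacZ, KD2 with lacZ and KD1 with KD2. Filled points had an adjusted p under 0.05, dashed lines mark a 1.3-fold change, and every interval lies between the dashed lines.

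The 95% intervals bound the size of these changes. With all 9 libraries, the 95% interval of every member lay within a 1.3-fold change in each comparison. The intervals reached from 18.8% lower to 18.2% higher in KD1 and from 20.1% lower to 27.5% higher in KD2. The bound of 27.5% belonged to pnt, and that of 20.1% belonged to Dsor1, the member with the largest spread among lacZ replicates (coefficient of variation 10.5%). Both genes left the 1.3-fold bound (0.38 on the log2 scale) when 1 library was left out. Without lacZ replicate 2 the interval of pnt reached 0.40 in KD2, and that of Dsor1 reached -0.39 in KD1 and -0.41 in KD2. Without KD2 replicate 2 the intervals in KD2 reached 0.41 for pnt and, just past the bound, -0.38 for Dsor1. No other member left the bound without any 1 library.

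14-3-3zeta (FBgn0004907, chromosome 2R, 10099677 to 10109687 of BDGP6, plus strand) encodes 1 of the 2 fly 14-3-3 proteins and has 12 annotated transcripts, which the gene-level count adds together. Its normalised read count was 30342, 30114 and 30590 in lacZ replicates 1, 2 and 3. It was 33051, 33263 and 33219 in KD1 replicates 1, 3 and 4, and 33060, 34009 and 32625 in KD2 replicates 1, 2 and 4. All 6 knockdown libraries lay above all 3 lacZ libraries, with no overlap. Relative to lacZ, the mean was 109.3% under KD1 and 109.5% under KD2. Both log2 fold changes were 0.13 ± 0.04 (SE), with an adjusted p of 0.00314 in KD1 and 0.00219 in KD2 (DESeq2). The edgeR test gave adjusted p-values of 0.0215 and 0.0198. In KD1 the call was lost without KD1 replicate 1 (adjusted p = 0.0553) or lacZ replicate 1 (adjusted p = 0.0555) in DESeq2, at a log2 fold change of 0.13 each time. With a block for replicate number both calls were lost, at a log2 fold change of 0.14 each (adjusted p = 0.224 in KD1 and 0.215 in KD2, DESeq2). Between KD1 and KD2 the log2 difference was -0.00, with a 95% interval of -0.07 to 0.07.

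14-3-3epsilon (FBgn0020238, 3R, 18242531 to 18250550, plus strand) encodes the other 14-3-3 protein. It was at 21212, 21340 and 21286 normalised reads in lacZ, at 21949, 22627 and 23164 in KD1 and at 22271, 23306 and 22165 in KD2, in the same order of replicates. All 6 knockdown libraries again lay above the lacZ libraries, which were close together. The log2 fold change was 0.09 ± 0.04 (SE) in both knockdowns and did not pass the test (adjusted p = 0.124 in KD1 and 0.116 in KD2, DESeq2). Per kb of exon, 14-3-3zeta exceeded 14-3-3epsilon 1.32-fold ± 0.01 in lacZ, 1.36-fold ± 0.03 in KD1 and 1.36-fold ± 0.01 in KD2 (SD, n = 3). The ranges of KD1 and lacZ overlapped, and this ratio was not tested.

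**Figure D3:**
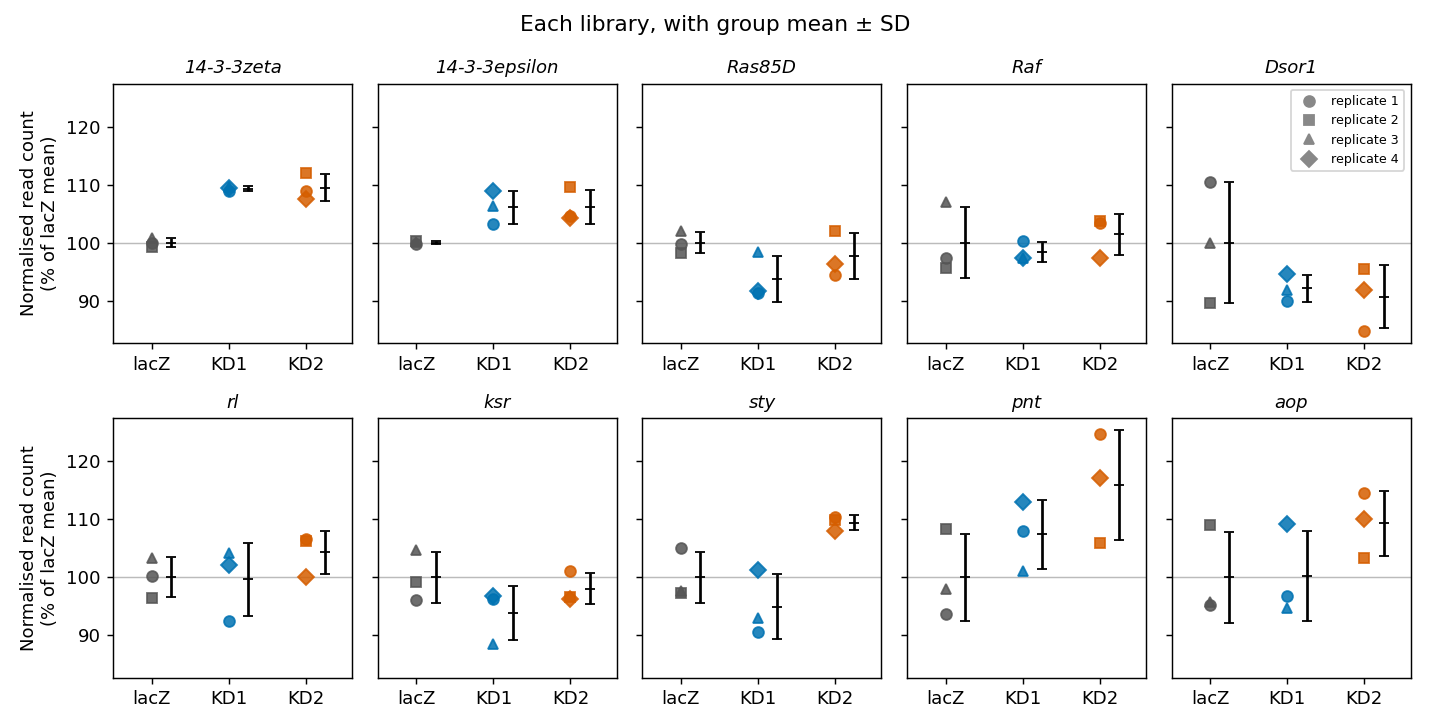
Normalised read count of each member in each library, as a percentage of its lacZ mean, with the mean ± SD of each group (n = 3) to the right of its points and the marker shape giving the replicate number. For 14-3-3zeta and 14-3-3epsilon all knockdown libraries lie above lacZ, whereas for the core kinases and ksr the groups overlap.

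The core of the cascade was examined next, from the GTPase to the last kinase. None of its 5 genes passed the test in either knockdown with DESeq2 or edgeR, and none had an unadjusted p under 0.05 in DESeq2. Ras85D (FBgn0003205, 3R, 9510561 to 9513067, minus strand) was at 3716, 3658 and 3795 normalised reads in lacZ, 3399, 3661 and 3411 in KD1 and 3515, 3799 and 3588 in KD2. KD1 replicates 1 and 4 lay below lacZ and KD1 replicate 3 lay within its range. The log2 fold change of Ras85D was -0.09 in KD1 (adjusted p = 0.212) and -0.03 in KD2 (adjusted p = 0.702, DESeq2).

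Raf (FBgn0003079, X, 2295466 to 2343870, plus strand), the kinase that Ras85D activates, was at 1276, 1252 and 1401 normalised reads in lacZ, 1314, 1275 and 1275 in KD1 and 1354, 1358 and 1276 in KD2. Dsor1 (FBgn0010269, X, 9247342 to 9250037, plus strand), which Raf phosphorylates, was at 567, 459 and 513 in lacZ, 461, 471 and 485 in KD1 and 435, 490 and 471 in KD2. For both kinases the knockdown libraries overlapped the range of lacZ, which was wide for Dsor1. The log2 fold changes were -0.02 and 0.02 for Raf (adjusted p = 0.848 and 0.856) and -0.12 and -0.14 for Dsor1 (adjusted p = 0.402 and 0.293) in KD1 and KD2 (DESeq2).

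The gene rl (FBgn0003256, 2R, 1071462 to 1125927, plus strand), the last kinase, was at 1702, 1639 and 1757 normalised reads in lacZ, 1572, 1772 and 1736 in KD1 and 1813, 1805 and 1700 in KD2. The scaffold ksr (FBgn0015402, 3R, 5478390 to 5483906, minus strand), which holds Raf and its substrates together, was at 487, 503 and 531 in lacZ, 488, 448 and 491 in KD1 and 512, 490 and 488 in KD2. The groups overlapped for both genes. Their log2 fold changes were -0.00 and 0.06 for rl (adjusted p = 0.967 and 0.537) and -0.09 and -0.03 for ksr (adjusted p = 0.488 and 0.865) in KD1 and KD2 (DESeq2). Of the exon bases of ksr, 15.24% overlap Hcs on the opposite strand, and whether the counting used strand is not given in the sources used here.

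The output genes were examined after the core. sty (FBgn0014388, 3L, 3401153 to 3424935, minus strand) was at 12222, 11322 and 11349 normalised reads in lacZ, 10542, 10822 and 11770 in KD1 and 12834, 12785 and 12556 in KD2. All KD2 libraries lay above all lacZ and KD1 libraries, while KD1 overlapped lacZ. Neither comparison with lacZ passed the test, with a log2 fold change of -0.07 ± 0.05 in KD1 (adjusted p = 0.339) and 0.13 ± 0.05 in KD2 (adjusted p = 0.0562, DESeq2). In KD2 the adjusted p passed 0.05 without lacZ replicate 1 (0.0325), without KD1 replicate 4 (0.0419) or with TMM factors (0.0462).

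The dsRNAs were also compared with each other, and sty was the only member to differ, at a level 13.2% lower in KD1 than in KD2. Its log2 difference was -0.20 ± 0.05 (SE), with a 95% interval of -0.31 to -0.10 and an adjusted p of 0.0273 in DESeq2. Among all genes 0.162% passed this comparison, 0.135% by being lower, and 0.0135% were also past 1.3-fold. The libraries of KD1 and KD2 did not overlap for 14.1% of all genes, with KD1 lower for 7.51%, and sty was the only such member. In DESeq2's filter only 2094 of the 7406 genes, 7 of the members among them, kept an adjusted p. The edgeR test gave an adjusted p of 0.404 for sty. Of the fits without 1 library, the call held without KD1 replicate 4 or lacZ replicate 2 and was lost without any of the other 7. The log2 difference of sty in those 7 was -0.21 to -0.17. With a correction of each library for exon length it was -0.16 (adjusted p = 0.655, DESeq2). Without independent filtering it was -0.20 (adjusted p = 0.0857, DESeq2). The median log2 difference between KD1 and KD2 was -0.06 over the 10 members and 0.00 over all genes, a contrast that was not tested.

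The activator pnt (FBgn0003118, 3R, 23290231 to 23346167, minus strand) was at 7837, 9060 and 8206 normalised reads in lacZ, 9038, 8466 and 9461 in KD1 and 10434, 8856 and 9805 in KD2. The groups overlapped, since lacZ replicate 2 lay above KD2 replicate 2 and above KD1 replicates 1 and 3. The mean of pnt was 15.9% higher in KD2 than in lacZ, a log2 fold change of 0.21 ± 0.07 (SE) with a 95% interval of 0.08 to 0.35 and an adjusted p of 0.0145 in DESeq2 (0.0257 in edgeR). The call in KD2 was lost without KD2 replicate 1 (log2 fold change 0.16, adjusted p = 0.134), KD2 replicate 4 (0.21, adjusted p = 0.0660), lacZ replicate 1 (0.17, adjusted p = 0.119) or lacZ replicate 3 (0.20, adjusted p = 0.0701) in DESeq2. In KD1 pnt had a log2 fold change of 0.10 ± 0.07 (adjusted p = 0.321), and a correction of each library for exon length gave 0.15 with an adjusted p of 0.0479 (DESeq2). The same correction gave 0.21 in KD2 (adjusted p = 0.00398, DESeq2). With a block for replicate number the call in KD2 was lost (0.17, adjusted p = 0.305, DESeq2).

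The repressor aop (FBgn0000097, 2L, 2156484 to 2178754, minus strand) was at 4693, 5373 and 4717 normalised reads in lacZ, 4773, 4670 and 5378 in KD1 and 5642, 5095 and 5425 in KD2. As for pnt, lacZ replicate 2 was the highest of its group and overlapped both knockdowns. The replicates of pnt and aop had the same order within each group, and so did those of msk, cic, Pp1-87B, gro and Ets21C, other genes of the pathway. The exons of these genes span 2203 bases (Pp1-87B) to 12579 bases (cic). How many of all genes share this order was not counted. In lacZ and KD2 the shared order was also that of the slope of log2 level on exon length in each library. Per doubling of length, that slope was 0.026 in lacZ replicate 2 and -0.0028 in lacZ replicate 1. It was 0.031 in KD2 replicate 1 and -0.0054 in KD2 replicate 2, and its part in the order of the replicates was not tested. The log2 fold change of aop was 0.00 in KD1 (adjusted p = 0.981) and 0.13 in KD2 (adjusted p = 0.184), and without lacZ replicate 2 the latter became 0.19 with an adjusted p of 0.0174 (DESeq2). With each library corrected for exon length, aop had 0.04 in KD1 (adjusted p = 0.671) and 0.12 in KD2 (adjusted p = 0.130, DESeq2). Per kb of exon, pnt exceeded aop 1.51-fold ± 0.03 in lacZ, 1.62-fold ± 0.06 in KD1 and 1.60-fold ± 0.05 in KD2 (SD, n = 3). The lowest ratio in KD2 and the highest in lacZ were both 1.55, and the ratio was not tested. Of the exon bases of aop, 5.63% overlap a gene on the opposite strand.

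For 14-3-3zeta, sty and pnt, the genes with the most similar pattern were looked up among 6587 genes with a mean CPM above 5. Similarity was the root mean square difference of centred log2 normalised counts over the 9 libraries. The nearest to 14-3-3zeta were Rab10 (0.0152), ttm50 (0.0199) and CG4364 (0.0218), where 14-3-3zeta itself had a root mean square of 0.063 about its mean. The nearest to sty were pum (0.0390), ImpL2 (0.0399) and psq (0.0422), against 0.0985 for sty. The nearest to pnt were ath (0.0313), FBgn0086899 (0.0316), an identifier to which no symbol was matched, and vimar (0.0329), against 0.121 for pnt. These values describe the 9 libraries, which share their group differences and their depth.

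The other genes of the pathway were taken from a list of 51 ligands, receptors, adaptors, inhibitors and effectors, of which 49 matched an identifier and 39 were tested. The list was made with earlier results of these data known, and its shares were not tested against those of all genes. The genes that fell by more than 1.3-fold were 3 ligands, a secreted inhibitor and, in KD1, a Ras inhibitor, while neither of the 2 receptors tested passed, and 1 of 6 adaptors and other receptor-proximal genes did. In KD1, 4 of the 39 rose and 7 fell, and 5 of those that fell were past 1.3-fold, where 11.5% of all genes fell and 5.13% fell past 1.3-fold. In KD2, 6 rose and 7 fell, and 4 of those that fell were past 1.3-fold, where 12.3% and 5.2% of all genes did so. By the values alone, 5 of the 39 lay above lacZ and 10 below without overlap in KD1, and 11 above and 7 below in KD2. Over all 7406 genes tested, 1423 lay above and 1499 below in KD1, and 1376 above and 1444 below in KD2. The median log2 fold change of the 39 genes was -0.04 in KD1 and 0.02 in KD2. Of the genes that passed, 11 did so in both knockdowns and in the same direction. Between KD1 and KD2 none of the 39 passed in DESeq2 or edgeR. There, 6 had an unadjusted p under 0.05 in DESeq2, against 384 of all 7406 genes tested, a contrast that was not tested.

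**Figure D4:**
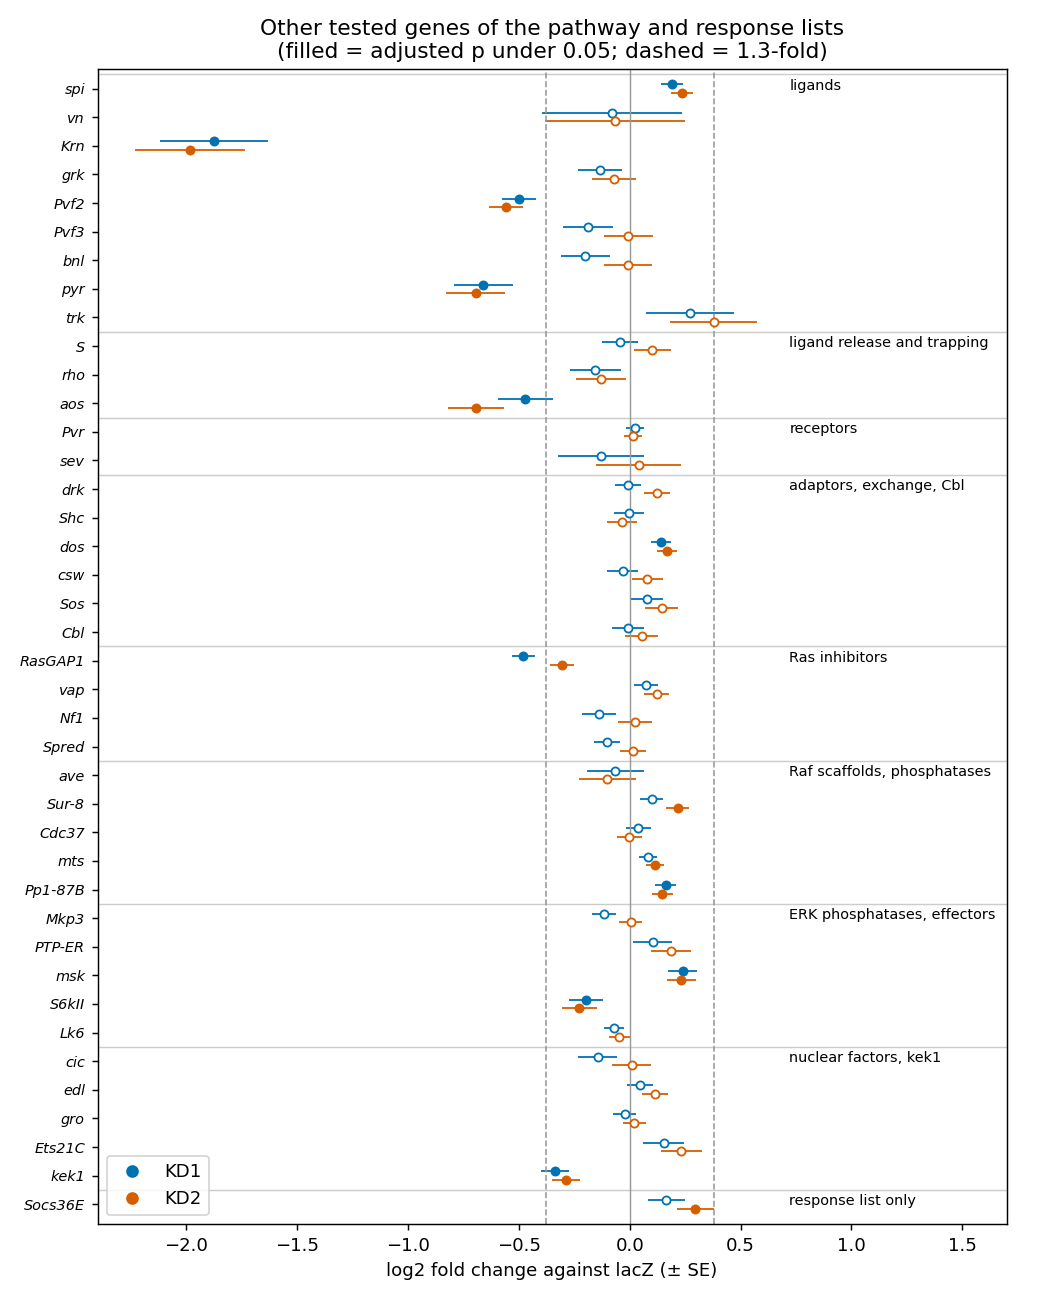
log2 fold change (± SE, DESeq2, 3 libraries per group) of the other tested genes of the pathway and response lists in KD1 and KD2 against lacZ, grouped by role. Filled points had an adjusted p under 0.05 and dashed lines mark 1.3-fold, and the points farthest to the left are those of Krn, at -1.88 and -1.98.

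Among the ligands, Krn, an EGF-type ligand of the Egfr, changed most. It was at 100.3, 90.7 and 112.8 normalised reads in lacZ, 31.07, 21.97 and 29.73 in KD1 and 25.2, 24.7 and 26.7 in KD2, with no overlap. The log2 fold change was -1.88 ± 0.24 in KD1 (adjusted p = 1.20e-12) and -1.98 ± 0.25 in KD2 (adjusted p = 1.13e-13, DESeq2). Krn shares 21.34% of its exon bases with Ndfip on the same strand, so its count is uncertain. spi, the most widely used ligand of the Egfr, rose, by a log2 fold change of 0.19 in KD1 (adjusted p = 0.00122) and 0.24 in KD2 (adjusted p = 3.07e-05).

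Pvf2, a ligand of the PDGF- and VEGF-receptor-related kinase Pvr, was at 2467, 2020 and 2391 normalised reads in lacZ, 1534, 1728 and 1600 in KD1 and 1585, 1473 and 1607 in KD2. All knockdown libraries lay below lacZ, with log2 fold changes of -0.50 ± 0.08 (adjusted p = 6.55e-09) and -0.56 ± 0.08 (adjusted p = 4.52e-11, DESeq2). pyr, an FGF-type ligand, was at 222.7, 204.2 and 244.4 in lacZ, 139.4, 143.3 and 141.2 in KD1 and 143.0, 123.7 and 146.9 in KD2. The groups did not overlap, and the log2 fold changes of pyr were -0.66 ± 0.13 (adjusted p = 1.56e-05) and -0.70 ± 0.13 (adjusted p = 4.40e-06).

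The receptors differed widely in level. Pvr was abundant, at 10896 to 11142 normalised reads in lacZ, 11032 to 11348 in KD1 and 10872 to 11504 in KD2, and its groups overlapped. The log2 fold changes were 0.03 and 0.01, and neither passed the test. sev, the other receptor tested, had log2 fold changes of -0.13 (adjusted p = 0.706) and 0.04 (adjusted p = 0.915, DESeq2). Egfr had 0 to 4 reads in any library and was not tested, nor were the receptors Alk, htl and tor, which were also near 0.

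Among the inhibitors, RasGAP1, which speeds the return of Ras to its inactive state, was at 2802, 2633 and 2766 normalised reads in lacZ, 1942, 2010 and 1928 in KD1 and 2265, 2247 and 2123 in KD2. It was lower in every knockdown library, with log2 fold changes of -0.48 ± 0.05 in KD1 (adjusted p = 7.65e-17) and -0.31 ± 0.05 in KD2 (adjusted p = 3.14e-07, DESeq2). All KD1 libraries lay below all KD2 libraries for RasGAP1, a difference of -0.17 that did not pass (adjusted p = 0.113). aos, a secreted protein that traps EGF-type ligands and is itself induced by the pathway, was at 326.0, 261.8 and 267.6 in lacZ, 205.3, 207.3 and 204.9 in KD1 and 175.7, 157.7 and 196.2 in KD2. The groups did not overlap, and the log2 fold changes of aos were -0.47 ± 0.12 (adjusted p = 0.00159) and -0.69 ± 0.13 (adjusted p = 1.15e-06). Without lacZ replicate 1 the value of aos in KD1 was -0.36, with an adjusted p of 0.0696. kek1, a transmembrane inhibitor of the Egfr, fell with log2 fold changes of -0.34 (adjusted p = 2.26e-06) and -0.29 (adjusted p = 8.64e-05).

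Smaller changes were seen among adaptors, phosphatases and effectors. The adaptor dos had log2 fold changes of 0.14 (adjusted p = 0.0121) and 0.17 (adjusted p = 0.00136) in KD1 and KD2. The phosphatase subunit Pp1-87B had 0.16 (adjusted p = 0.00433) and 0.15 (adjusted p = 0.0100), and msk, an importin that carries phosphorylated rl into the nucleus, had 0.24 (adjusted p = 0.00212) and 0.23 (adjusted p = 0.00248). S6kII, a kinase of the RSK family, had log2 fold changes of -0.20 (adjusted p = 0.0480) and -0.23 (adjusted p = 0.0185), and 25.45% of its exon bases overlap a gene on the opposite strand. In fits without 1 library the calls of dos in KD1 were lost without KD1 replicate 1, 3 or 4 or lacZ replicate 1 (log2 fold change 0.12 to 0.16). Those of Pp1-87B were lost without KD1 replicate 4 or lacZ replicates 1 or 3 in KD1 (0.14 to 0.16), and without KD2 replicates 1 or 4 or lacZ replicates 1 or 3 in KD2 (0.12 to 0.15). Those of S6kII were lost without any 1 library except lacZ replicate 2 in KD1 (-0.21 to -0.16), and without KD2 replicates 1 or 4 or lacZ replicates 1 or 3 in KD2 (-0.23 to -0.19).

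Sur-8 and mts passed the test in KD2 and not in KD1, and are named because their values were seen. Sur-8, a scaffold that joins Ras and Raf in worms and mammals, had a log2 fold change of 0.22 in KD2 (adjusted p = 0.000347) and 0.10 in KD1 (adjusted p = 0.177, DESeq2). The difference between KD1 and KD2 did not pass for Sur-8 (adjusted p = 0.407). mts, the catalytic subunit of the phosphatase PP2A, had 0.11 in KD2 (adjusted p = 0.0341), a call that was lost without any 1 of the 9 libraries (0.10 to 0.13), and 0.08 in KD1 (adjusted p = 0.164).

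A second list held 10 genes described as transcribed in response to the pathway in fly tissues, sty, pnt, aos and kek1 among them. All 10 were tested. In KD1 none rose and 2 fell (aos and kek1), and in KD2 pnt and Socs36E rose and aos and kek1 fell, so that 2 and 4 of the 10 passed, where 21.2% and 23.6% of all genes did. In KD1, 4 genes of this list had an unadjusted p under 0.05 in DESeq2, and Socs36E was the only one of them that was higher. The edgeR test passed 2 genes there, again aos and kek1. Of all 7406 genes tested in KD1, 2347 had an unadjusted p under 0.05 in DESeq2 and 1780 passed in edgeR. In KD2, 7 genes had an unadjusted p under 0.05, and the edgeR test passed 5, with Ets21C (adjusted p = 0.0426 in edgeR, 0.0539 in DESeq2) beside those named above. Over all genes these counts were 2460 and 1992 in KD2. Of the exon bases of Ets21C, 28.33% overlap nAChRbeta3 on the opposite strand. Socs36E, an inhibitor of cytokine signalling, is named because its value was seen. Its log2 fold change was 0.30 in KD2 (adjusted p = 0.00318) and 0.16 in KD1 (adjusted p = 0.153), and without KD2 replicate 4 the value in KD2 was 0.22 (adjusted p = 0.0648). In KD1 it passed without KD2 replicate 2 (0.17, adjusted p = 0.0257).

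Mkp3, a phosphatase that inactivates rl, was at 1768 to 1845 normalised reads in lacZ, 1665 to 1684 in KD1 and 1786 to 1861 in KD2. All KD1 libraries of Mkp3 lay below lacZ, but its log2 fold changes of -0.12 (adjusted p = 0.104) and 0.00 (adjusted p = 0.970) did not pass. edl, an antagonist of ETS factors such as pnt, had log2 fold changes of 0.05 (adjusted p = 0.624) and 0.11 (adjusted p = 0.142, DESeq2). The genes of the response list thus differed in direction, with aos and kek1 lower in both knockdowns, pnt higher in KD2 and sty and Mkp3 not past the test in either.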

How the data were processed

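Counts per gene were analysed for 9 polyadenylated, stranded RNA-seq libraries of S2R+ cells. The authors aligned reads with STAR 2.5.1b to BDGP6 (Ensembl gene models) and counted them with featureCounts of Subread 1.4.6-p2. The strand setting of the counting is not given in the sources used here. The deposited values are raw read counts per gene, 1 file per library, without normalisation or pooling. Isoforms are summed, and a read count carries no information on protein or phosphorylation.

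Symbols were matched for 98.26% of the identifiers, and positions and exon lengths came from Ensembl release 115 of BDGP6. The study used release 90, and 306 identifiers had no annotation in release 115. Genes with a mean CPM above 1 over all 9 libraries were kept (7406 genes, at least 99.91% of the reads of each library). DESeq2 1.42.0 (R 4.3.3) was fitted to all libraries with a 3-level group and no covariate, with median-of-ratios size factors, the Wald test, Benjamini-Hochberg adjustment over all genes and independent filtering at an alpha of 0.1, after the methods of the study. Normalised counts are counts divided by the size factors (0.904 to 1.07). Intervals are at 95% and cover the spread between the libraries of this cell line.

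Alternatives were the edgeR quasi-likelihood test (edgeR 4.0.16), no independent filtering, TMM factors, no minimum CPM, a prior on fold changes, only the groups compared, no fold requirement, a replicate block, a correction for exon length, and leaving out each library. The procedure was tested on simulated data in which every planted change was larger than 1.3-fold. That test does not cover the smaller changes reported for the members. The members and the lists were chosen with earlier results of these data known. Named were all members, Hrb98DE, Egfr, Pvr, Mkp3, edl, every listed gene past the threshold (adjusted p under 0.05 and fold above 1.3) in KD1 or KD2, and those with an adjusted p under 0.05 in both. A few others are marked as chosen after their values were seen. btl and cnk of the pathway list and 2 germline markers were not analysed here. The 1 germline marker matched, bam, did not pass the test in any comparison.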

Additional observations from a re-analysis of the deposited data

Results flagged for a closer look

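sty was the member whose level under the 2 dsRNAs differed by a test of the difference itself. The log2 difference between KD1 and KD2 was -0.20 ± 0.05 (SE, n = 3 each, adjusted p = 0.0273 in DESeq2), and all 3 KD1 libraries lay below all 3 KD2 libraries. sty passed this test in 5 of 18 alternative fits, and the cause of the difference was not tested.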

How the results depend on the processing

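No value reversed among those compared over 18 alternatives in each comparison, although 13, 8 and 33 values without a call changed sign (KD1, KD2 and KD1 against KD2). With no fold requirement, the members past the threshold went from 0 to 1 in KD1, 2 in KD2 and 1 in KD1 against KD2, and the pathway genes from 5 to 11 in KD1 and from 4 to 13 in KD2. The members that differed between KD1 and KD2 went from 1 to 0 with edgeR, with only the groups compared, without independent filtering and with the exon length correction, which gave 2 members in place of 1 in KD1. Leaving out 1 library gave 0 to 1 members with an adjusted p under 0.05 in KD1 (0 without KD1 replicate 1 or lacZ replicate 1), 1 to 3 in KD2 (1 without KD2 replicate 1 or 4 or lacZ replicate 3) and 0 to 1 in KD1 against KD2. It gave 7 to 12 pathway genes in KD1 (7 without lacZ replicate 1) and 10 to 14 in KD2. Same-numbered replicates did not deviate together on average. Their 6 pairs had correlations of -0.34 to 0.16 with a mean of -0.06, against -0.32 to 0.33 with a mean of 0.02 for 21 other pairs. With 3 libraries per group, these correlations cannot decide whether the numbers pair the libraries, because other differences between libraries also enter them. With the replicate block, members with an adjusted p under 0.05 were 0 in KD1, 0 in KD2 and 0 between them, and pathway genes 6 in KD1 and 7 in KD2. With the replicate block and the exon length correction together, members were 0 in all 3 comparisons and pathway genes were 7 in KD1 and 7 in KD2. Over all genes, the block left 322 and 344 past the threshold in place of 546 and 602, and the prior on fold changes left 340 and 392. With the block, the intervals of 9 members in KD1, 9 in KD2 and 10 between them lay within 1.3-fold, and Dsor1 was the exception. The smallest read count of a member in any library was 457 (Dsor1), and with 3 libraries per group the spread between libraries limits the precision.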
